A study of Mus musculus with 12 samples.

Results

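The interferon response and antigen presentation genes described here are 38 genes listed by name: transcription factors of interferon signalling, antiviral effectors, sensors of foreign nucleic acid, modifiers of other proteins, interferon-induced GTPases, genes of class I antigen presentation and the chemokine Cxcl10. Each was represented by its probe set with the highest mean over the 12 arrays of the study. Of the 38, 36 had a probe set of their own and all 36 lay above the filter on low values, out of 15237 genes that did so. Ifi44 and Isg15 were not analysed here, since no probe set of the table used names them alone. The arrays were of the Affymetrix type Mouse Genome 430 2.0, and the series title names pancreatic islets as the subject. The 4 groups of 3 arrays were wild type (WT) mice on a normal diet, Sgpp2-/- (KO) mice on a normal diet, WT mice on a high-fat diet and KO mice on a high-fat diet, all of strain C57BL6. Sgpp2 encodes sphingosine-1-phosphate phosphatase 2, which sits in the endoplasmic reticulum and dephosphorylates the lipid signal of that name. The sources used here do not give the age and sex of the mice, the length of the diets, how the allele was made or whether an array holds 1 animal or a pool. P-values therefore reflect only the spread among these arrays, part of which may be technical. All levels below are log2 values, on which a difference of 1 is a doubling, and arrays of a group are given in the order of their replicate numbers.

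Interferons are secreted when a cell detects viral nucleic acid or when lymphocytes are activated. Type I interferons signal through the receptor pair Ifnar1 and Ifnar2 to a complex that includes Stat2 and Irf9 and binds a DNA element called the ISRE. Interferon gamma acts through another element, called GAS, and through Irf1. The induced proteins block viral replication, attack intracellular pathogens, and raise the processing of proteins into peptides and their display on class I molecules to CD8 T cells. In islets, class I display on β-cells and the chemokine Cxcl10 are best known from autoimmune diabetes.

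Promoter sequences were taken from RefSeq (GRCm38.p6), which gave a window from 250 bases before to 50 bases after a gene's start for 29 of the 38 genes. Iigp1, Usp18, Mx1, Mx2, Tap2, Parp14, Nlrc5, Rtp4 and Zbp1 had none in that table. The ISRE core was searched as GAAANNGAAA and the GAS core as TTCNNNGAA, both on either strand. The ISRE core stood in 15 of 29 genes (51.7%), against 3.99% of 27025 genes with a window of the same length, and the GAS core in 8 of 29 (27.6%), against 9.55%. The motifs can overlap, and did so in 1 window, that of Bst2. A match is a description of the letters and not a test of binding. The stretches below show 1 match each, in capitals, with 15 bases on either side, read 5′ to 3′ on the gene's strand. The first 5 belong to genes whose values are described below, and are not the 5 with the largest differences between genotypes. Averaged over diets, Ifit3, which also carries the ISRE core, and Oasl2, which carries neither motif, differed more than Irgm1. Igtp carries both motifs, B2m carries the ISRE core at a high and even level, and Irf1 and Psmb8 carry the GAS core.
Ifit1, chr19:34640770-34640809, + strand, ISRE core: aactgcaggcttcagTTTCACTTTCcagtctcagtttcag
Gbp3, chr3:142559984-142560023, + strand, ISRE core: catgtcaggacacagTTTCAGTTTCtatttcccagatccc
Irgm1, chr11:48871420-48871459, - strand, ISRE core: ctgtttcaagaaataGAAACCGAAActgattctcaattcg
Cxcl10, chr5:92349078-92349117, - strand, ISRE core: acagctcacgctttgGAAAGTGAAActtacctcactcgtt
Rsad2, chr12:26456548-26456587, - strand, ISRE core: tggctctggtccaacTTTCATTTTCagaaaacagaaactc
Igtp, chr11:58199507-58199546, + strand, ISRE core: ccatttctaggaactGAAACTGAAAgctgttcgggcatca
Igtp, chr11:58199496-58199534, + strand, GAS core: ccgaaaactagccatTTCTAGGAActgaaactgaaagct
B2m, chr2:122147533-122147572, + strand, ISRE core: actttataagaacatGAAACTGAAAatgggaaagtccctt
Irf1, chr11:53769909-53769947, + strand, GAS core: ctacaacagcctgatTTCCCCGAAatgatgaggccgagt
Psmb8, chr17:34198083-34198121, + strand, GAS core: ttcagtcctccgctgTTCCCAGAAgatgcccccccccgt
The windows of Irf7, Irf9, Oasl2, Ifi44, Tap1, Tapbp, Psmb9, Xaf1, Dtx3l and Trim25 held neither motif as spelled. Several of the genes are neighbours: Psmb9, Tap1, Psmb8 and Tap2 follow each other directly among the protein-coding genes, as do the pairs Ifit2 and Ifit3, Igtp and Irgm2, and Parp14 and Dtx3l. None of the 38 lies on the chromosome of Sgpp2.

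Sgpp2 itself read between 11.00 and 11.17 on the 6 KO arrays and between 11.46 and 11.63 on the 6 WT arrays, so every array stood on the side of its label (two-sided exact permutation test, p = 0.00216, n = 6 per genotype). Its probe set fell by 0.46 in KO (SE 0.05, adjusted p = 0.00327), to a level that was still high. The 9 islet endocrine markers measured had means between 11.49 and 14.96, and acinar markers were also bright, with a mean of 13.97 for Cpa1. Array medians lay between 7.0 and 7.13. On the first principal component of all genes tested (27.1% of the variance), WT high-fat array 2 stood at 6.5, among the KO arrays (2.4 to 26.2) and apart from the other WT arrays (-21.1 to -7.5). Calls of members that changed when it was left out are given with and without it.

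Averaged over both diets, 2 of the 36 genes were called as higher in KO islets, Iigp1 and Ifit1. Iigp1 is an immunity-related GTPase that attacks the vacuoles of intracellular parasites, and Ifit1 binds viral RNA whose cap lacks a methyl group. Iigp1 was 2.06-fold higher (log2 difference 1.04, SE 0.20, adjusted p = 0.0186) and Ifit1 1.70-fold higher (0.76, SE 0.20, adjusted p = 0.0462), by limma with Benjamini-Hochberg adjustment over all genes tested. No member fell. The background in this comparison was 6.32% of 15237 genes called in either direction and 3.3% called as higher in KO, so 2 of 36 is a share near the background. The share of higher genes among all calls depended on the scaling: it was 52.2% as deposited, 71.2% after cyclic loess and 80.8% after centring on array medians. Both calls rested on the arrays used: 0 members passed once WT normal array 1 or WT high-fat array 3 was dropped, and 4 passed once WT high-fat array 2 was (Iigp1, Ifit1, Gbp3 and Cxcl10). Same-numbered KO arrays of the 2 diets deviated together, and with these pairs as a random block the adjusted p was 0.0564 for Iigp1 and 0.0727 for Ifit1.

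In the separate comparisons 0 members passed the threshold. For KO against WT the background was 0.84% of genes on the normal diet and 0.0263% on the high-fat diet. For the high-fat against the normal diet it was 0.0788% in WT, 0% in KO and 0.197% averaged over genotypes, and for the interaction of genotype and diet 0%. These backgrounds depended on single arrays: without WT high-fat array 2 the calls over all genes went from 4 to 272 for KO against WT on the high-fat diet, from 12 to 0 for the diet in WT and from 30 to 0 for the diet averaged over genotypes, while the count of members stayed at 0 in each. For KO against WT on the normal diet, where 128 genes were called, leaving out 1 array gave 2 to 223. At an unadjusted p under 0.05, limma gave 4 members higher and 2 lower in KO on the normal diet (background 22.1% of all genes) and 10 higher and 0 lower on the high-fat diet (13.4%). Averaged over diets it gave 7 higher and 1 lower (28.6%). The diet gave 1 higher and 0 lower in WT (11.1%), 5 higher and 1 lower in KO (7.7%), and 4 higher and 0 lower averaged over genotypes (13.6%). The interaction gave 3 above and 1 below 0 (4.97%).

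The interaction of genotype and diet called 0 members (smallest adjusted p = 0.896), so the values of the 2 diets are given side by side. On the high-fat diet 30 of 36 genes had a higher mean in KO than in WT, with a median difference of 0.195, beside 43.3% of all genes and a median of -0.029. On the normal diet 22 of 36 were higher, with a median of 0.070, beside 40.2% of all genes and a median of -0.054. Over the 2 diets, 19 genes were higher in KO on both, 3 lower on both, 11 lower on the normal and higher on the high-fat diet, and 3 the reverse. The same sign on both diets was thus seen in 61.1% of members and in 70.6% of all genes. The 3 KO arrays lay wholly above the 3 WT arrays for 3 members and wholly below them for 7 on the normal diet (background 34.3% of genes without overlap in either direction), and above for 8 and below for 1 on the high-fat diet (14.8%). The median of the high-fat comparison was 0.116 when WT high-fat array 3 was left out, 0.299 when WT high-fat array 1 was, and 0.133 when the first KO high-fat array was. That of the normal diet was 0.026 without KO normal array 1, 0.040 without WT normal array 2, 0.041 without KO normal array 3 and 0.124 without KO normal array 2.

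**Figure D1:**
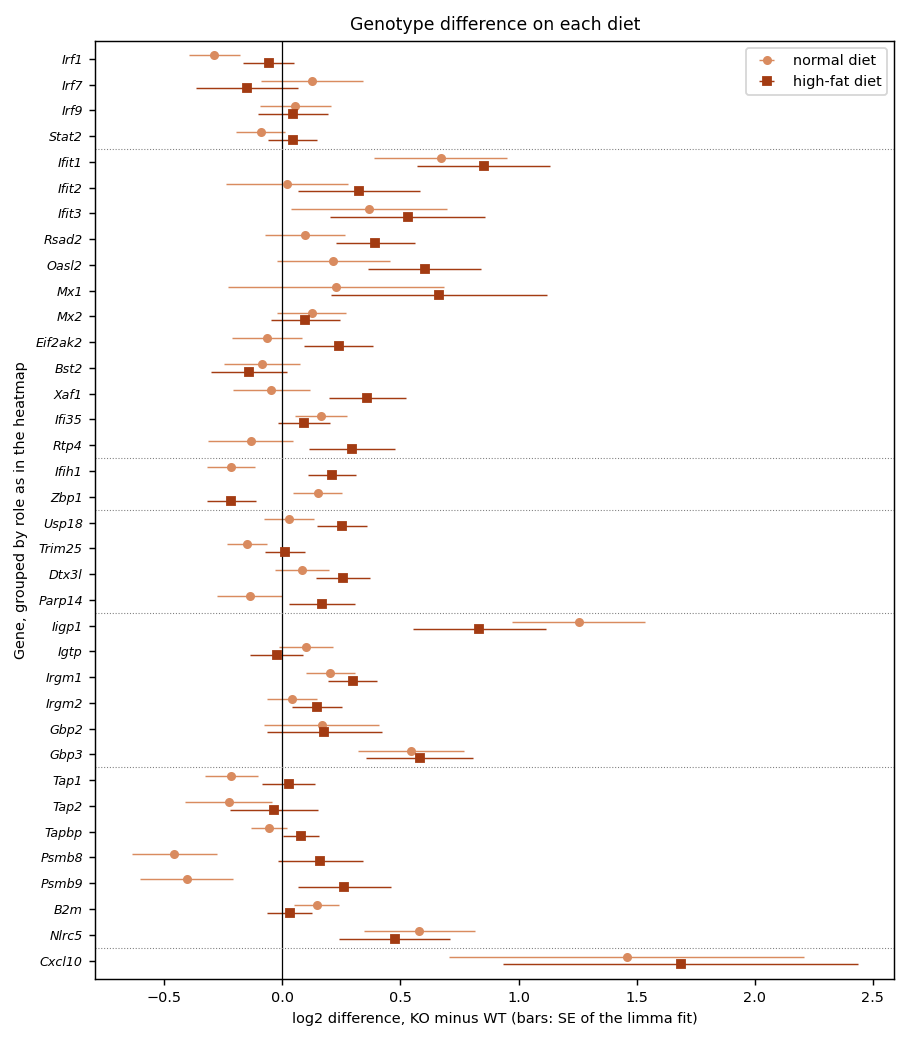
Difference between KO and WT (x axis, log2, bars are the SE of the limma fit) for each of the 36 genes (y axis, grouped by role) on the normal diet (circles) and the high-fat diet (squares), from 3 arrays per group. Cxcl10 and Iigp1 lie farthest to the right on the normal diet and Cxcl10 on the high-fat diet, while Psmb8 and Psmb9 lie left of 0 on the normal diet and right of it on the high-fat diet.

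All 6 interferon-induced GTPases were higher in KO when averaged over diets, with a median difference of 0.211, beside 40.5% of all genes and a median of -0.041. Of the 6, 1 passed the threshold (6.32% of all genes) and 3 had an unadjusted p under 0.05 (28.6%). With the normal diet Iigp1 read 6.42, 6.31 and 6.84 in WT and 7.67, 7.35 and 8.31 in KO. With the high-fat diet it read 7.08, 7.36 and 6.83 in WT and 8.33, 8.08 and 7.36 in KO. The genotypes did not overlap on either diet, although the lowest KO array and the highest WT array of the high-fat diet were equal at 2 decimals. Iigp1 was 2.39-fold higher in KO on the normal diet (log2 difference 1.25, SE 0.28, adjusted p = 0.063) and 1.78-fold higher with high fat (0.83, SE 0.28, adjusted p = 0.265). The normal diet value passed after centring on array medians (adjusted p = 0.046), with a trended robust prior (0.0346) and without KO high-fat array 3 (0.0456). Its second probe set, at a mean level of 6.64, gave a difference of 0.54 averaged over diets (unadjusted p = 0.0115).

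Gbp3 belongs to the guanylate-binding proteins, which gather on pathogen vacuoles and bacteria. It read 7.62, 7.59 and 8.03 in WT against 8.32, 7.93 and 8.62 in KO on the normal diet. In the high-fat groups it read 7.89, 8.02 and 7.37 in WT against 8.68, 8.25 and 8.08 in KO. The genotypes overlapped on the normal diet through KO array 2 and WT array 3, and did not overlap on the high-fat diet. Gbp3 was 1.48-fold higher in KO averaged over diets (log2 difference 0.56, SE 0.16), which missed the threshold (adjusted p = 0.058) and passed it after cyclic loess (0.0475), after median centring (0.042), with a trended robust prior (0.0395) and without WT high-fat array 2 (0.0338). Gbp2, which lies 2 protein-coding genes away, differed by 0.17 (adjusted p = 0.528).

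Irgm1 is a regulator of the other immunity-related GTPases and of autophagy. On the normal diet Irgm1 read 7.95, 8.21 and 8.27 in WT and 8.39, 8.38 and 8.26 in KO, and on the high-fat diet 8.28, 7.96 and 8.19 in WT and 8.51, 8.44 and 8.37 in KO. Only KO normal array 3 lay among the WT arrays of its diet. The difference averaged over diets was 0.25 (SE 0.08, adjusted p = 0.0658). It passed after cyclic loess (0.0273) and after median centring (0.0345). Irgm2 and Igtp, neighbouring genes that encode further members of this family, differed by 0.09 (adjusted p = 0.428) and 0.04 (adjusted p = 0.778). Igtp had the smallest p of the members for the diet in WT: it read 9.96, 10.06 and 9.92 on the normal diet and 10.07, 10.21 and 10.40 on the high-fat diet (difference 0.25, SE 0.11, unadjusted p = 0.0492, adjusted p = 0.446). In KO it read 10.08, 10.03 and 10.12 on the normal diet and 10.38, 10.26 and 9.97 on the high-fat diet, and these overlapped.

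**Figure D2:**
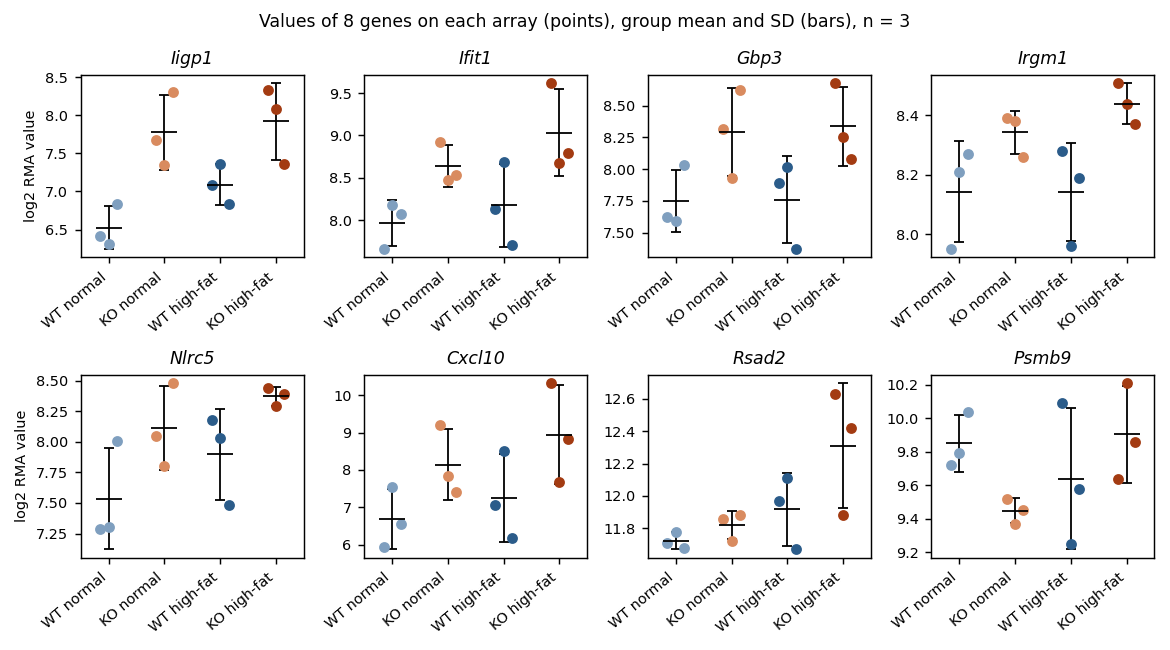
Log2 value (y axis) of 8 genes on each array (points) in the 4 groups (x axis), with the group mean and SD as bars, n = 3. Iigp1, Gbp3 and Irgm1 have higher means in KO on both diets, Rsad2 stands highest in KO high-fat arrays 1 and 3, and the mean of Psmb9 is lower in KO on the normal diet and higher on the high-fat diet.

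Among the 12 antiviral effectors and other induced genes measured, 11 were higher in KO averaged over diets, with a median difference of 0.164. This stands beside 40.5% of all genes and a median of -0.041. Of the 12, 1 passed the threshold, Ifit1, against 6.32% of all genes. With the normal diet Ifit1 read 7.66, 8.18 and 8.07 in WT and 8.92, 8.47 and 8.53 in KO, with no overlap. High-fat values were 8.13, 8.69 and 7.71 in WT and 9.62, 8.68 and 8.79 in KO, and WT array 2 lay just above KO array 2. The difference was 0.67 (SE 0.28, adjusted p = 0.201) on the normal diet and 0.85 (SE 0.28, adjusted p = 0.252) with high fat. The call averaged over diets rested on the set of arrays: it was lost when any array but WT high-fat array 2 was left out, with adjusted p-values up to 0.116, and without that array it was 0.017.

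Ifit3, a partner of Ifit1 in RNA binding, and Ifit2 are neighbouring genes. On the normal diet Ifit3 read 8.0, 8.39 and 8.60 in WT and 8.93, 8.47 and 8.69 in KO. On the high-fat diet it read 8.70, 9.13 and 8.14 in WT and 9.97, 8.63 and 8.97 in KO. Both diets overlapped between genotypes, and the difference averaged over them was 0.45 (SE 0.23, adjusted p = 0.227). For Ifit2 it was 0.17 (adjusted p = 0.553). KO high-fat array 1 held the highest value of Ifit1, Ifit2 and Ifit3.

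Oasl2, a relative of the oligoadenylate synthetases, read 8.42, 8.84 and 8.83 in WT and 8.90, 8.87 and 8.97 in KO on the normal diet. With the high-fat diet it read 8.98, 8.98 and 7.93 in WT and 9.41, 9.17 and 9.12 in KO. The genotypes did not overlap on either diet, and WT high-fat array 3 was far below the other 2 arrays of its group. The difference was 0.22 (SE 0.24, adjusted p = 0.602) on the normal diet and 0.60 (SE 0.24, adjusted p = 0.327) with high fat, where it was as low as 0.25 under the alternatives tried.

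Rsad2 encodes viperin, which makes a chain-terminating nucleotide against viral polymerases. It read 11.71, 11.78 and 11.68 in WT and 11.86, 11.72 and 11.88 in KO on the normal diet. In the high-fat groups Rsad2 read 11.97, 12.11 and 11.67 in WT and 12.63, 11.88 and 12.42 in KO. The 3 KO high-fat arrays reached from the top of the KO normal range upward. In KO the high-fat diet differed from the normal diet by 0.49 (SE 0.17, unadjusted p = 0.0142, adjusted p = 0.516), and averaged over genotypes by 0.34 (SE 0.12, adjusted p = 0.251). KO against WT on the high-fat diet differed by 0.39 (SE 0.17, adjusted p = 0.357). The second probe set of Rsad2, at a mean level of 9.98, gave 0.57 for that comparison (unadjusted p = 0.0224), and the third, at 5.03, gave 0.07.

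Cmpk2, which feeds viperin with its nucleotide substrate, is no member of the 38 but rose in KO. It read between 10.92 and 11.17 on the 6 KO arrays and between 10.32 and 10.94 on the 6 WT arrays. The difference averaged over diets was 0.48 (SE 0.09, adjusted p = 0.0174). It held as a call with the KO pairs as a random block (adjusted p = 0.0351) and was lost when all probe sets of a gene were averaged (0.146) and without KO normal array 3 (0.0524).

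Xaf1, an interferon-induced promoter of cell death, read 9.48, 9.66 and 9.92 in WT and 9.64, 9.51 and 9.76 in KO on the normal diet, where the genotypes overlapped. High-fat values were 9.77, 9.70 and 9.15 in WT and 9.88, 9.80 and 10.02 in KO, and there they did not (difference 0.36, SE 0.16, unadjusted p = 0.0499, adjusted p = 0.374). Rtp4, a chaperone of membrane receptors, read 8.99, 8.35 and 8.70 in KO on the normal diet and 9.20, 8.90 and 9.06 on the high-fat diet. In WT it read 8.60, 8.90 and 8.94 on the normal diet and 9.03, 8.81 and 8.44 on the high-fat diet. The KO groups of Rtp4 overlapped only through KO normal array 1 (difference 0.38, SE 0.18, adjusted p = 0.671). A second probe set of Rtp4, at a mean level of 6.69, gave -0.07 for this diet difference in KO, so its direction depended on the probe set.

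The remaining effectors differed between genotypes, averaged over diets, by between -0.11 for Bst2, which tethers budding virus particles to the cell, and 0.45 for Mx1, a GTPase that is defective in most inbred laboratory strains of mice. Mx1 had the widest range of these, 2.66, from 5.86 on WT high-fat array 3 to 8.52 on KO high-fat array 1, and its difference had an SE of 0.32 (adjusted p = 0.377). Mx2 lay near the filter, with a mean of 5.26. Eif2ak2, the RNA-activated kinase PKR, differed by 0.09 and Ifi35 by 0.13 (adjusted p = 0.604 and 0.296). The probe sets of Eif2ak2 disagreed: in KO on the normal diet the third differed by -0.41 and the second by 0.10, and on the high-fat diet by -0.02 and 0.69. The Ifi35 probe set used read 12.32 on average and its other 2 read 9.32 and 8.88, with differences of -0.01 and -0.02.

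Cxcl10, the chemokine that draws CXCR3-bearing T cells, had the largest genotype differences and the widest range of the 36 genes. With the normal diet it read 5.95, 7.55 and 6.55 in WT and 9.20, 7.83 and 7.40 in KO. On the high-fat diet Cxcl10 read 7.07, 8.51 and 6.19 in WT and 10.32, 7.68 and 8.82 in KO. The genotypes overlapped on both diets. The group means were 6.68 ± 0.81 and 8.14 ± 0.94 (SD, n = 3) on the normal diet and 7.26 ± 1.17 and 8.94 ± 1.33 on the high-fat diet, for WT and KO in turn. Averaged over diets Cxcl10 was 2.97-fold higher in KO (log2 difference 1.57, SE 0.53), which missed the threshold (adjusted p = 0.0892) and passed it without WT high-fat array 2 (0.036).

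The class I antigen presentation genes had no common direction. On the normal diet 2 of 7 were higher in KO, with a median difference of -0.216, and on the high-fat diet 6 of 7, with a median of 0.078. In neither did a gene pass the threshold. Psmb8 and Psmb9 encode interferon-induced subunits of the immunoproteasome, which cuts proteins into peptides fit for class I molecules. On the normal diet Psmb8 read 9.11, 9.04 and 9.40 in WT and 8.67, 8.75 and 8.75 in KO, with no overlap (difference -0.46, SE 0.18, unadjusted p = 0.0273, adjusted p = 0.181). With the high-fat diet it read 9.26, 8.56 and 8.78 in WT and 8.84, 9.34 and 8.90 in KO, which overlapped (0.16, adjusted p = 0.705).

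Psmb9 read 9.72, 9.79 and 10.04 in WT and 9.52, 9.37 and 9.45 in KO on the normal diet, again with no overlap. In the high-fat groups Psmb9 read 10.09, 9.25 and 9.58 in WT and 9.64, 10.21 and 9.86 in KO. The difference was -0.41 (SE 0.20, adjusted p = 0.249) on the normal diet and 0.26 (SE 0.20, adjusted p = 0.564) with high fat. The WT high-fat arrays of both subunits spread more widely than the WT normal arrays, with an SD of 0.36 against 0.19 for Psmb8 and 0.42 against 0.17 for Psmb9. The interaction was 0.62 for Psmb8 (SE 0.26, unadjusted p = 0.0334, adjusted p = 0.955) and 0.67 for Psmb9 (SE 0.28, unadjusted p = 0.0343, adjusted p = 0.961), so a difference between the diets was not shown.

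Tap1 and Tap2 form the transporter that carries peptides into the endoplasmic reticulum. With the normal diet Tap1 read 9.53, 9.51 and 9.69 in WT and 9.39, 9.36 and 9.34 in KO, with no overlap (difference -0.22, SE 0.11, adjusted p = 0.277). High-fat values were 9.69, 9.25 and 9.63 in WT and 9.62, 9.62 and 9.42 in KO (0.03, adjusted p = 0.93). A second probe set of Tap1, at a mean level of 6.15, was higher in KO on the normal diet (0.52, unadjusted p = 0.00994), so the direction of Tap1 depended on the probe set. Tap2 differed by -0.23 on the normal diet and -0.04 on the high-fat diet (adjusted p = 0.476 and 0.942).

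Tapbp encodes tapasin, which loads peptides onto class I molecules. In KO it read 13.42, 13.29 and 13.34 on the normal diet and 13.48, 13.58 and 13.50 on the high-fat diet. In WT it read 13.30, 13.45 and 13.47 on the normal diet and 13.52, 13.42 and 13.38 on the high-fat diet. The diet groups did not overlap in KO (difference 0.17, SE 0.08, unadjusted p = 0.0454, adjusted p = 0.636). A second probe set of Tapbp, at a mean level of 6.41, gave 0.002 for this diet difference in KO. B2m, the light chain of every class I molecule, was among the brightest members, from 13.19 to 13.60 over all arrays, and differed between genotypes by 0.09 averaged over diets (adjusted p = 0.402).

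Nlrc5 encodes the transactivator that switches on class I genes, and with B2m it was 1 of the 2 genes of this group with a higher mean in KO on the normal diet. It read 7.29, 7.30 and 8.01 in WT and 8.05, 7.80 and 8.48 in KO on that diet. On the high-fat diet Nlrc5 read 8.18, 8.03 and 7.48 in WT and 8.44, 8.29 and 8.39 in KO. WT array 3 reached into the KO range on the normal diet, and the high-fat groups did not overlap. Averaged over diets, Nlrc5 was 1.44-fold higher in KO (log2 difference 0.53, SE 0.17, adjusted p = 0.0741), and 0 of 20 alternatives called it.

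**Figure D3:**
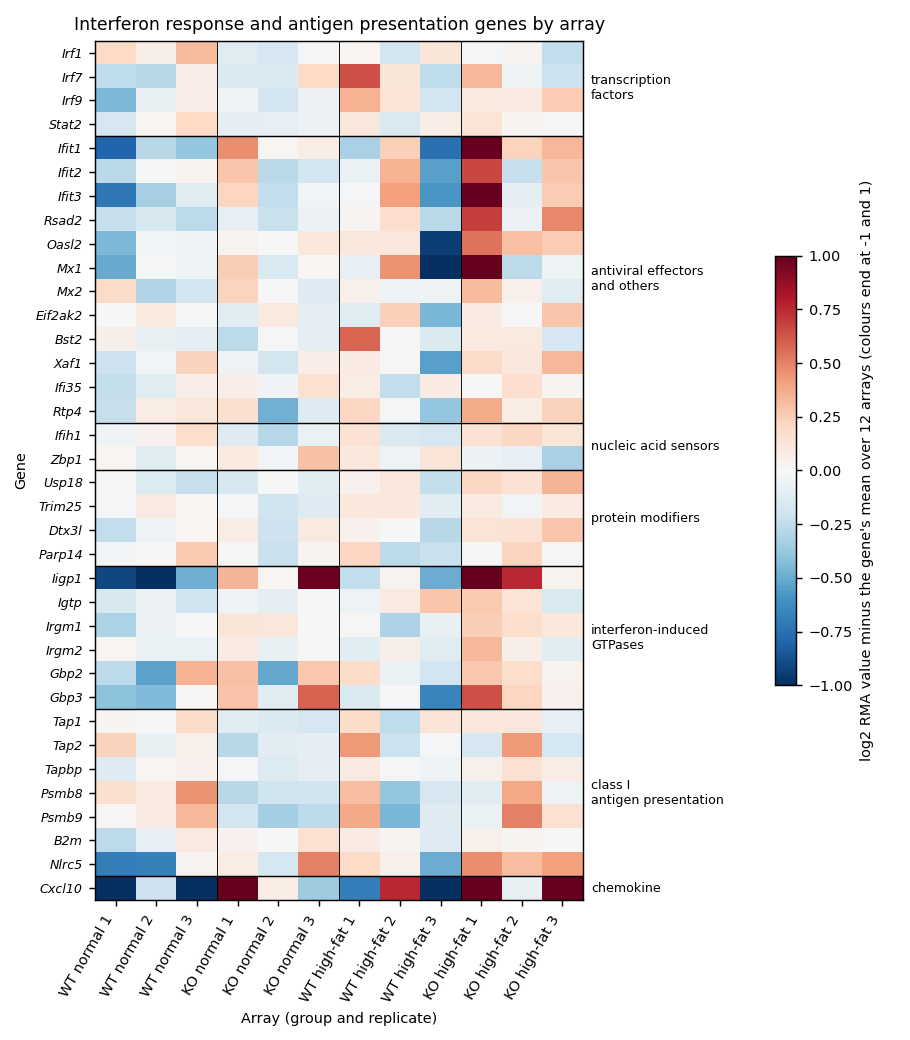
Deviation of each of the 36 genes (rows, grouped by role) from its own mean over the 12 arrays (columns), in log2 units, with colours ending at -1 and 1. KO high-fat array 1 is the highest array for 13 genes, 8 of them antiviral effectors, and WT high-fat array 3 is the lowest for 10, 6 of them antiviral effectors.

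The 4 transcription factors differed between genotypes by -0.17 to 0.05 averaged over diets, with a median of -0.019, and 0 passed the threshold. Irf1, a factor of the interferon gamma response, read 10.16, 10.02 and 10.28 in WT and 9.84, 9.79 and 9.95 in KO on the normal diet. With the high-fat diet it read 9.98, 9.77 and 10.08 in WT and 9.95, 9.99 and 9.71 in KO. The normal diet groups did not overlap (difference -0.29, SE 0.11, unadjusted p = 0.0215, adjusted p = 0.165), and averaged over diets the difference was -0.17 (SE 0.08, adjusted p = 0.163).

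Irf9, the DNA-binding part of the complex with Stat2, read 8.79, 9.17 and 9.31 in WT and 9.21, 9.05 and 9.18 in KO on the normal diet. In the high-fat groups it read 9.59, 9.38 and 9.06 in WT and 9.34, 9.33 and 9.50 in KO. The KO diet groups did not overlap, and averaged over genotypes the diet difference was 0.25 (SE 0.11, unadjusted p = 0.0372, adjusted p = 0.335). Irf7, which amplifies type I interferon production, read 7.70, 7.68 and 8.02 in WT on the normal diet and 8.60, 8.08 and 7.70 on the high-fat diet (difference 0.32, SE 0.22, adjusted p = 0.635). In KO it read 7.81, 7.81 and 8.16 on the normal diet and 8.28, 7.91 and 7.74 on the high-fat diet. Stat2 had the narrowest range of the 4, 0.38.

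Neither of the 2 sensors passed the threshold in any comparison, and averaged over diets they differed between genotypes by -0.03 to 0.00. Ifih1, which encodes MDA5, the sensor of long double-stranded RNA, read 9.95, 10.04 and 10.17 in WT and 9.87, 9.71 and 9.93 in KO on the normal diet. High-fat values were 10.14, 9.85 and 9.83 in WT and 10.14, 10.20 and 10.12 in KO. The KO arrays lay below the WT arrays on the normal diet, and the 3 KO high-fat arrays lay above the 3 KO normal arrays. The diet difference in KO was 0.32 (SE 0.10, unadjusted p = 0.00952, adjusted p = 0.494) and the interaction 0.43 (SE 0.14, unadjusted p = 0.0118, adjusted p = 0.896), which were the smallest p-values of the members in those comparisons.

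Zbp1, a sensor of left-handed nucleic acid that can start cell death, read 6.44, 6.30 and 6.44 in WT and 6.52, 6.39 and 6.71 in KO on the normal diet. On the high-fat diet it read 6.53, 6.37 and 6.55 in WT and 6.36, 6.34 and 6.10 in KO. The KO arrays of the high-fat diet lay below all WT arrays of that diet and below all KO arrays of the normal diet. The diet difference in KO was -0.27 (SE 0.10, unadjusted p = 0.0239, adjusted p = 0.563) and the interaction -0.37 (SE 0.15, unadjusted p = 0.0297, adjusted p = 0.946). The direction depended on the probe set: a second one, at a mean level of 5.21, gave 0.21 for the diet in KO and 0.29 for KO against WT on the high-fat diet, where the probe set used gave -0.22. The interaction shrank to -0.03 when the probe sets of a gene were averaged.

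The 4 protein modifiers measured had higher means in KO than in WT on the high-fat diet, by 0.01 to 0.26. Of these, 2 were higher and 2 lower on the normal diet, with a median of -0.056, and 0 passed the threshold on either diet. Usp18 removes ISG15 from proteins and damps signalling at Ifnar2. It read 11.65, 11.50 and 11.41 in WT and 11.48, 11.64 and 11.53 in KO on the normal diet. With the high-fat diet Usp18 read 11.68, 11.75 and 11.40 in WT and 11.84, 11.78 and 11.98 in KO. The KO high-fat arrays lay above all others. KO against WT on the high-fat diet was 0.25 (SE 0.11, unadjusted p = 0.0352, adjusted p = 0.347) and the diet difference in KO 0.31 (SE 0.11, unadjusted p = 0.0125, adjusted p = 0.503).

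Dtx3l, a ubiquitin ligase that acts with Parp9, read 12.20, 12.39 and 12.46 in WT and 12.52, 12.24 and 12.54 in KO on the normal diet. In the high-fat groups it read 12.49, 12.44 and 12.17 in WT and 12.57, 12.59 and 12.72 in KO. Here too the KO high-fat arrays lay above all others (KO against WT on that diet 0.26, SE 0.12, unadjusted p = 0.0462, adjusted p = 0.369). Its neighbour Parp14, which attaches ADP-ribose to proteins, read 10.09, 10.11 and 10.38 in WT on the normal diet and 10.33, 9.85 and 9.89 on the high-fat diet. In KO Parp14 read 10.13, 9.89 and 10.14, then 10.13, 10.34 and 10.10, and its interaction was 0.31 (SE 0.20, adjusted p = 0.998).

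Trim25, a ubiquitin ligase in RNA sensing, read 12.56, 12.66 and 12.59 in WT and 12.56, 12.37 and 12.44 in KO on the normal diet (difference -0.15, SE 0.08, adjusted p = 0.31). High-fat values were 12.68, 12.68 and 12.46 in WT and 12.66, 12.54 and 12.65 in KO. The diet difference in KO was 0.16 (SE 0.08, adjusted p = 0.699). Further probe sets of Trim25, at mean levels of 11.36 and 7.58, gave 0.057 and 0.125 for KO against WT on the normal diet. Their SEs were 0.109 and 0.128, and the direction of Trim25 on that diet depended on the probe set. Over all members, 14 genes had at least 1 more probe set, 18 in all above the filter. Their difference between genotypes averaged over diets had the sign of the probe set used in 8 cases and the opposite in 10, and on the high-fat diet in 13 and 5.

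For the high-fat diet as such, 33 of 36 members had a higher mean on the high-fat than on the normal diet in KO, with a median difference of 0.177 beside -0.006 for all genes, of which 48.1% were higher. In WT it was 20 of 36, with a median of 0.015 beside -0.017. The WT median was 0.112 without WT high-fat array 3, 0.063 without WT normal array 3, 0.030 without WT normal array 2 and 0.031 without the second WT high-fat array. It turned to -0.022 when WT high-fat array 1 was left out and to -0.011 when WT normal array 1 was. The KO median was 0.103 without KO high-fat array 1. The comparisons of the 2 diets and of the 2 genotypes share arrays: the KO high-fat arrays enter both the diet difference in KO and the genotype difference on the high-fat diet. The interaction was above 0 for 26 of 36 members, with a median of 0.168 beside 0.016 for all genes, and the median was 0.074 when KO high-fat array 1 or WT high-fat array 3 was left out and 0.108 without KO normal array 2.

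Single arrays stood out across the members. KO high-fat array 1 was the highest array for 13 of 36 members (36.1%), against 4.73% of all genes. WT high-fat array 3 was the lowest for 10 (27.8%), against 12.8% of all genes, and WT normal array 1 for 8 (22.2%), against 7.06%. The median deviation of the members from their means was 0.20, 0.11 and 0.06 on the KO high-fat arrays and 0.08, 0.01 and -0.18 on the WT high-fat arrays. It was 0.02, -0.14 and -0.02 on the KO normal arrays and -0.22, -0.06 and 0.03 on the WT normal arrays. The ranges of WT and KO overlapped on both diets. For the antiviral effectors WT high-fat array 3 stood at -0.50 and KO high-fat array 1 at 0.46.

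**Figure D4:**
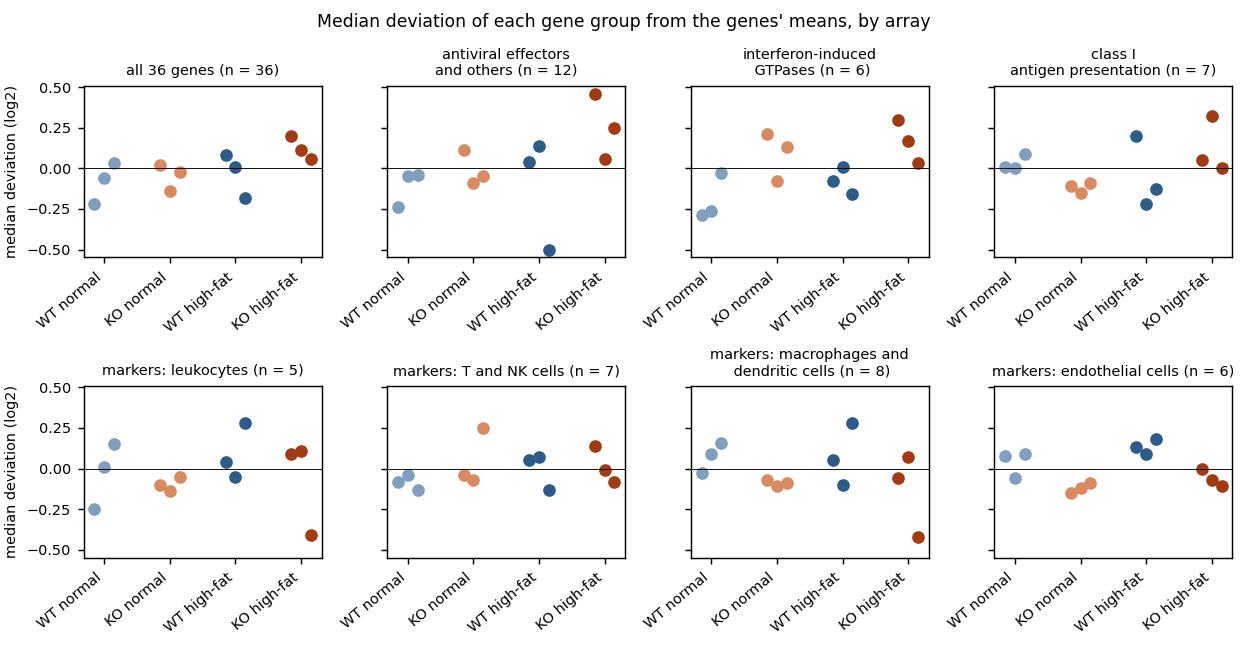
Median deviation (y axis, log2) of the genes of a list from their own means over 12 arrays, for each array (points) in the 4 groups (x axis). The upper row shows the 36 members and 3 of their roles and the lower row shows markers of leukocytes, T and NK cells, macrophages and dendritic cells, and endothelial cells, of which the endothelial list is lower in KO.

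Upstream in the pathway, Ifnar2, a chain of the type I interferon receptor, fell in KO. It read between 9.91 and 10.16 on the 6 KO arrays and between 10.23 and 10.59 on the 6 WT arrays, with no overlap (difference averaged over diets -0.44, SE 0.08, adjusted p = 0.0132). The call was lost when the probe sets of a gene were averaged (0.0688). Of the 6 interferon receptor genes tested, 1 was higher in KO and 5 were lower, with a median of -0.135. For all genes the median was -0.041 and 40.5% were higher. The interferons Ifnb1 and Ifng were below the filter, with highest values of 4.48 and 4.77.

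In each of the pathway lists 1 gene passed, beside a background of 6.32% of all genes, and nothing is read from these counts. Of the 9 kinases, STATs and inhibitors tested, 1 passed: Pias1, an inhibitor of STAT signalling, rose by 0.44 (SE 0.11, adjusted p = 0.0367). With the probe sets of a gene averaged, the difference of Pias1 was 0.06 (adjusted p = 0.486). Jak1, the kinase shared by both receptor types, differed by -0.22 (SE 0.06, adjusted p = 0.0616). Of 13 further sensors and adaptors, 1 passed: Ikbke, a kinase that activates interferon regulatory factors, fell by 0.45 (SE 0.11, adjusted p = 0.0432). Ikbke lies on the chromosome of Sgpp2, 265 protein-coding genes away. Of 35 further interferon-induced genes, 20 were higher in KO and 1 passed, Cmpk2, with a median of 0.058 beside -0.041 for all genes. Of 17 further antigen presentation genes, 4 were higher and 1 passed: Canx, the chaperone calnexin, rose by 0.19 (SE 0.05, adjusted p = 0.0448). The calls of Pias1, Ikbke and Canx were lost with the KO pairs as a random block (adjusted p = 0.0665, 0.0759 and 0.0794) and when most single arrays were left out. That of Canx was also lost with averaged probe sets (0.141).

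Markers of other cell types were read from the same arrays, since fewer cells of a type and less RNA per cell cannot be told apart in bulk tissue. Of 5 leukocyte markers, 2 were higher in KO averaged over diets and 0 passed, beside 40.5% of all genes higher and 6.32% called. Their median deviation ranged over the arrays of a group from -0.25 to 0.15 in WT normal, -0.14 to -0.05 in KO normal, -0.05 to 0.28 in WT high-fat and -0.41 to 0.11 in KO high-fat. Of 8 macrophage and dendritic cell markers, 2 were higher, with a median of -0.253 and 0 past the threshold, and their ranges were -0.03 to 0.16, -0.11 to -0.07, -0.10 to 0.28 and -0.42 to 0.07 in the same order. Itgam and Flt3 of this list were below the filter, with highest values of 4.23 and 4.82. The lowest array on both lists was KO high-fat array 3, on which Iigp1 was the lowest of its group and Usp18 the highest. That array was also the lowest for 23.1% of all genes, the largest share of any array, and the highest for 10.2%. Its median deviation over all genes was -0.05. Of the 36 members, it was the lowest array for 2 (5.56%) and the highest for 4 (11.1%). Whether its low marker values reflect fewer such cells was not tested.

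Of 7 T and NK cell markers, 6 were higher in KO, with a median of 0.112 and 0 past the threshold. They lay near the filter, with means from 5.29 for Cd3g to 6.12 for Cd3e, and their ranges over the groups were -0.13 to -0.04, -0.07 to 0.25, -0.13 to 0.07 and -0.08 to 0.14. Cd3e read 7.0 on KO high-fat array 1, the array with the most members at their highest, and at most 6.32 on the other arrays. No other marker of the list was highest there: Cd3d, Cd3g and Cd2 lay above their means on that array and Cd8a, Cd4 and Nkg7 below. The median deviation of the list was 0.14 on that array and 0.25 on KO normal array 3. All 3 B cell markers were lower in KO, with a median of -0.229. Their part in the differences of the members was not tested.

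All 6 endothelial markers were lower in KO, with a median of -0.221, beside -0.041 for all genes, of which 40.5% were higher. Of the 6, 2 passed the threshold, against 6.32% of all genes. Pecam1 fell by 0.50 (SE 0.11, adjusted p = 0.0318) and Kdr fell by 0.23 (SE 0.06, adjusted p = 0.0448). The ranges of the list were -0.06 to 0.09 in WT normal, -0.15 to -0.09 in KO normal, 0.09 to 0.18 in WT high-fat and -0.11 to 0.00 in KO high-fat. Of 6 stromal markers, 4 were higher in KO and 1 passed (6.32% of all genes), Pdgfrb, which rose by 0.34 (SE 0.08, adjusted p = 0.0299). With the probe sets of a gene averaged, the difference of Pdgfrb was 0.12 (adjusted p = 0.348). With the KO pairs as a random block the adjusted p was 0.0657 for Pecam1, 0.0941 for Kdr and 0.0577 for Pdgfrb. The calls of these genes were also lost when most single arrays were left out, and that of Kdr after median centring (0.109) and with no filter (0.0529). All 8 acinar markers were higher in KO, with a median of 0.132 and 0 past the threshold. The ranges of the acinar list were -0.22 to 0.01 in WT normal, 0.01 to 0.25 in KO normal, -0.27 to 0.05 in WT high-fat and -0.06 to 0.00 in KO high-fat. All 8 were higher in KO on the normal diet, with a median of 0.257, and 5 of the 8 did not overlap between genotypes (background 34.3%). Of the 9 islet endocrine markers, 2 were higher and 7 lower in KO averaged over diets, with a median of -0.066 and 0 past the threshold. The part of these cell types in the differences of the members was not tested.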

How the data were processed

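Total RNA was extracted with Trizol and biotinylated cRNA was made from 4 µg of it, per the labels' protocols. The authors deposited 1 log2 value per probe set and array; RMA and Partek 6.6 are named in the submitters' processing notes. Because RMA equalises array distributions, a shift of most genes 1 way would be hidden. The number of arrays limits the precision: the median SE of a difference between 2 groups was 0.12.

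Of 45101 probe sets, 34945 named 1 gene symbol and stood for 18193 genes. A gene was read from the brightest of its probe sets by the mean of the 12 arrays, and 2956 genes not above 5 on at least 3 arrays were left out. Limma 3.58.1 in R 4.3.3 fitted 4 group means to the 12 arrays together; 8 residual degrees of freedom became 11.08 by moderation. Contrasts were tested two-sided with Benjamini-Hochberg adjustment over 15237 genes at a threshold of 0.05. The fit was tested on simulated data with independent noise for each gene and array, which does not cover paired or outlying arrays. Alternatives were other scalings, filters, probe set rules, priors, replicate blocks and leaving out each array.

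Same-numbered KO arrays deviated together across diets (r = 0.288, 0.383 and 0.138), the best of 6 matchings. No other pair of groups had a positive r for every replicate number. A best match among 6 can arise by chance, the more so with several pairs of groups tried, so a real pairing was not shown. What the replicate numbers mean is not stated in the labels. The correlation within a KO pair was 0.368. Values are given for every array of members called or among the 8 smallest p of a comparison, and list genes called are named, with others of small p. The members, lists and this rule were chosen with earlier results of these data known. Figures were drawn with matplotlib 3.10.9.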

Additional observations from a re-analysis of the deposited data

How the results depend on the processing

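Averaged over diets, 2 members were called in KO. The count was 4 after cyclic loess and 4 after median centring (Iigp1, Ifit1, Gbp3 and Irgm1), 1 with no filter, 1 with the mean of probe sets and 1 under a replicate block over all groups (Iigp1, adjusted p = 0.0426, with Ifit1 at 0.0708). It was 0 with the KO pairs as a random replicate block, and 0 to 4 when each array was left out in turn: 0 without WT normal array 1 or WT high-fat array 3, 4 without the second WT high-fat array and 1 otherwise. On the normal diet, where 0 members were called, 1 was called after median centring, 1 with a trended robust prior and 0 to 1 with an array left out (1 without KO high-fat array 3), in each case Iigp1. In the other comparisons 0 members were called under every alternative tried. The interaction of Tap1, 0.24, turned to -0.03 with the mean of probe sets. Of the values of single genes under the alternatives, 1123 kept their side of the threshold and their direction, 18 lost and 10 gained a call and 1 changed direction. Most of the 1123 were genes without a call that stayed without one. The 18 lost calls all belonged to the 2 called members: Ifit1 kept its call averaged over diets in 5 of 20 alternatives and Iigp1 in 17 of 20. All genes called averaged over diets numbered 963, and 2500 without WT high-fat array 2, 352 with the KO pairs as a random block, and 255 without WT normal array 1. The causes were not tested. Fitting only the groups compared was possible for the 4 comparisons of 2 groups. Signals near 5 limit what can be seen of Mx2 and the T and NK cell markers.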
